A study of Mus musculus with 18 samples.

Results

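Basal cells that carried transcripts of the cell cycle were examined at mid-pregnancy, in 2 droplet single-cell RNA libraries of mammary epithelium from FVB/NJ mice at pregnancy day 12.5 (H and G). A cell was taken when it had at least 500 detected genes, under 20% of its unique molecular identifiers (UMIs) from mitochondrial genes, more UMIs of the basal keratin genes Krt5 and Krt14 than of the luminal keratin genes Krt8 and Krt18, at least 1 UMI of Trp63, Cxcl14, Il17b or Jag2, and at least 3 UMIs in all of Mki67, Top2a, Cenpf and Pclaf. This rule took 1856 cells, 667 in H and 1189 in G, of the 24613 cells that passed the first 2 limits in these libraries and of 149371 barcodes in the series. They were set against the 7964 basal cells of the same libraries (2927 in H and 5037 in G) that had no UMI of the 4 cell cycle genes, called non-cycling here. Basal cells with 1 or 2 such UMIs, 493 in H and 900 in G, belonged to neither set.

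Basal cells form the outer layer of the mammary epithelium, touch the basement membrane, and in their mature form are myoepithelial cells that contract around alveoli and ducts when oxytocin is released at nursing. Their contractile machinery is that of smooth muscle, with smooth muscle actin (Acta2), myosin chains and actin-binding proteins such as transgelin (Tagln). Alveoli are built during pregnancy, when both the luminal and the basal layer grow by cell division. A dividing cell copies its DNA in S phase, when Pclaf and the MCM helicase genes are expressed, and separates the copies in G2 and mitosis, when Top2a, Cenpf and many spindle genes are expressed.

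The study placed these libraries among 10 of FVB/NJ glands that covered the adult, pregnancy day 12.5, pregnancy day 18.5, lactation and a post-involution stage. The study's text describes glands of pooled mice from which Lin- CD24+ CD29hi epithelial cells were sorted by flow cytometry. Its summary of the libraries instead names total epithelial cells, and H and G held luminal cells too, as given below. The labels name no transgene or treatment. The 3 adult libraries, used below as a comparison, came from FVB/NJ mice of 10 weeks. H held 66274512 UMIs in 11406 barcodes and G held 71602020 in 13877, with a median of 5140.5 and 4238 UMIs per kept cell. H and G had 207 barcode sequences in common, against 214.682 for independent draws from the kit's list of barcodes, and the cycling basal cells had 1 in common. The library was the unit of replication throughout. The p-values measure a spread between libraries that was estimated over all stages in a fit, not over H and G alone.

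The markers of the label are the genes of the rule, so they describe the cells and do not check the label. Contractile genes, which the rule did not use, summed to 27282 (H) and 26859 (G) CPM (UMIs scaled to a common total) in the members and to 3119 and 4551 in cycling luminal cells. Krt5 and Krt14 exceeded Krt8 and Krt18 by construction, and of all cells of H and G that met the keratin condition (4186 and 7252) only 99 and 126 had no UMI of the 4 basal genes. Pclaf, a DNA replication factor that binds PCNA, was seen in 93.1% (H) and 92% (G) of the members and gave 45.3% and 43.9% of their UMIs of the 4 cell cycle genes. Top2a, the topoisomerase that untangles chromosomes, was seen in 71.8% and 74.0%, Cenpf, a kinetochore protein, in 63.0% and 65.5%, and Mki67, the antigen of the Ki-67 proliferation marker, in 46.0% and 47.6%. All 4 genes were seen together in 139 cells (20.8%) of H and 280 (23.5%) of G, whereas 41 (6.15%) and 76 (6.39%) were members by Pclaf alone. The median member had 6 of these UMIs in either library, with quartiles of 4 and 8 and a maximum of 23 (H) and 33 (G). The cells were chosen by these UMI counts, which are given as a description.

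Most members held more UMIs of G2 and mitosis genes than of S phase genes. Between the lists of each phase, the former exceeded the latter in 604 members (90.6%) of H and 1064 (89.5%) of G, and the opposite held in 55 and 109. The lists differ in their number of genes and in their levels, with medians of 36 and 37 UMIs per member against 8 and 8. The rule itself also chose cells by Top2a and Cenpf, genes of G2 and mitosis, beside Pclaf of S phase. The shares are therefore not a count of cells in each phase. Of the 421 tested genes on the 3 cell cycle lists, 375 were higher and 3 lower in cycling cells, which describes the selection and was not used as evidence. Promoter sequences from RefSeq (mouse build GRCm38.p6, the 250 bases before the transcription start) are shown for a rule gene of each phase, since their transcripts were counted together to choose the cells. Capitals mark the letters CCAAT, the NF-Y motif, on either strand (ATTGG on the other).
Top2a (chr11:99024190-99024439, minus strand): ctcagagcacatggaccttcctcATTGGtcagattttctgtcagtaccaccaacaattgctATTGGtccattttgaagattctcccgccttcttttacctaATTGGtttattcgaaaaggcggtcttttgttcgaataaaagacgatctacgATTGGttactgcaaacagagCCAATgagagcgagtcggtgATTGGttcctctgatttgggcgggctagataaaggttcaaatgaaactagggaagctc
Pclaf (chr9:65890073-65890322, plus strand): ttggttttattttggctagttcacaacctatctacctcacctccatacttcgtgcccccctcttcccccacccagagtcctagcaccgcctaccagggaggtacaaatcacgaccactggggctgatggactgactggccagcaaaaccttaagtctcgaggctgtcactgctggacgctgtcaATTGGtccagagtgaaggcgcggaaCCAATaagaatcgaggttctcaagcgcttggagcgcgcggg
The motif occurred 6 times in the Top2a window and 2 times in that of Pclaf. Of the other rule genes, Cenpf had 2 and Mki67 had 3. It was found in 35 of 48 promoters (72.9%) of the G2 and mitosis list, in 22 of 33 (66.7%) of the S phase list and in 11120 of 32851 (33.8%) of all promoters of this length. A match describes letters in the window and not a bound site.

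Cycling cells made up 16.3% of the basal cells of H (95% exact binomial interval 15.2 to 17.5) and 16.7% of those of G (15.8 to 17.6). The same rule gave 6.18%, 0.258% and 1.84% in the 3 adult libraries, 1.82% and 2.90% at pregnancy day 18.5, 0.129% and 2.43% at lactation day 10, and 0.452% after involution. Both day 12.5 libraries thus lay above the other 8, and the intervals, which cover counting error only, did not overlap with theirs. The libraries differed in depth, with a median of 3210 (H) and 3393 (G) UMIs per basal cell and between 1798 and 4478 in the others. Basal cells with at least 2000 UMIs were also thinned to that number, which left out the shallower cells and so changed the cells counted: 3788 of 4087 were kept in H and 6679 of 7126 in G, but 2213 of 4667 in day 18.5 replicate 1, 549 of 1163 in adult replicate 2 and 288 of 777 in lactation replicate 1. In the cells kept, the shares were 8.76% in H and 8.13% in G, and between 0.0919% and 2.26% in the other 8. Since the same UMIs define the cells, no test was made of these shares, and G and H differed by less than their intervals.

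**Figure D1:**
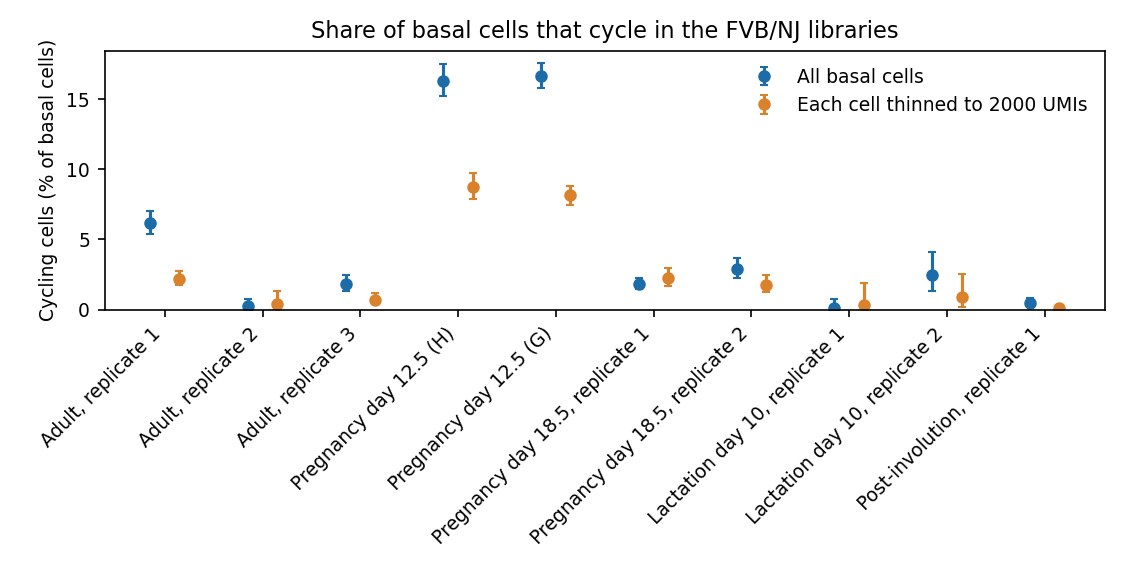
Share of basal cells that met the cell cycle rule (vertical axis, percent) in each of the 10 FVB/NJ libraries, with all UMIs and, for cells with at least 2000 UMIs, after thinning to that number; bars give exact binomial 95% intervals. H (16.3%) and G (16.7%) sit above the other libraries, the highest of which is adult replicate 1 at 6.18%.

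Cycling basal cells held more UMIs than the non-cycling ones, which the rule itself favours, since 3 UMIs of 4 genes are reached more easily in a deep cell and 0 in a shallow one. Their median was 4745 UMIs and 1816 genes in H and 5121 UMIs and 1890 genes in G, against 2968 and 1209 (H) and 3095 and 1237 (G) in non-cycling cells. Mitochondrial shares were alike, with medians of 3.85% against 3.83% in H and 3.55% against 3.57% in G. Because of the difference in depth, levels are given below in 2 ways, as CPM (a gene's UMIs scaled to a common total per sum of cells), which are shares of the transcripts, and as UMIs per cell. In addition, the comparison of cycling with non-cycling basal cells was repeated against non-cycling cells chosen to be near the members in UMI total, 667 in H and 1189 in G. These were still somewhat shallower than the members, with medians of 4331 against 4745 UMIs in H and 4694 against 5121 in G, and are called depth-matched here. The differences from luminal cells and from the adult gland, given further below, were not repeated with such a reference.

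Outside the cell cycle, genes of the contractile apparatus took a smaller share of the transcripts of cycling basal cells. Summed over the list of 26 genes, it was 27282 CPM in the cycling and 48181 CPM in the non-cycling basal cells of H, a ratio of 0.566, and 26859 against 46728 CPM in G, a ratio of 0.575. In UMIs per cell the gap was small, with 135 against 153 in H and 147 against 157 in G. The depth-matched non-cycling cells, although shallower than the members, held 203 (H) and 219 (G) contractile UMIs per cell, and against them the ratio of CPM was 0.617 in either library.

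Of the 25 contractile genes tested, 21 fell and none rose (edgeR quasi-likelihood test with the library as a block, adjusted p under 0.05), with a median change of -0.70 on the log2 scale. Over all 12988 genes tested the same fit called 3261, or 25.1%, of which 13.1% of genes were higher and 12% lower in cycling cells, and the median change was -0.02. That count was 742 without H and 632 without G, and 4615 and 4643 without adult replicate 1 or 3. The counts of most lists below moved in the same way. With library totals in place of TMM scaling the median of all genes was 0.12, 2573 of 3565 called genes were higher, and 20 contractile genes still fell. Acta2 stood at 20427 scaled CPM (H) and 20028 (G) in non-cycling and at 10282 and 10507 in cycling cells, a log2 change of -0.95 ± 0.15 (adjusted p = 8.8e-07). Here and below, the value after ± is an SE from the spread shared by all stages of the fit, not from H and G alone. Tagln, which binds actin filaments, went from 4438 and 4369 scaled CPM to 1639 and 1722, a change of -1.38 ± 0.18 (adjusted p = 5.9e-09). The levels of cycling and non-cycling cells did not overlap for either gene, and H and G lay close together within each state. In UMIs per cell, Acta2 was 58.2 and 59.7 in non-cycling and 51.3 and 56.3 in cycling cells, while Tagln was 12.7 and 13 against 8.18 and 9.22.

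Other contractile genes were those of myosin and its regulators. Myl9, a regulatory light chain of smooth muscle myosin, went from 2943 and 2708 to 1512 and 1435 scaled CPM (-0.93 ± 0.14, adjusted p = 5.6e-07), and Mylk, the kinase that activates it, changed by -1.03 ± 0.17 (adjusted p = 2.2e-06). Ppp1r14a, an inhibitor of myosin phosphatase, went from 270 and 292 to 116 and 114 scaled CPM (-1.28 ± 0.12, adjusted p = 4.4e-13), and the enteric smooth muscle actin Actg2 from 768 and 700 to 324 and 317 (-1.18 ± 0.15, adjusted p = 5.4e-09). Smaller falls were seen for the smooth muscle myosin heavy chain Myh11 (-0.70 ± 0.16, adjusted p = 0.00055) and for calponin, Cnn1 (-0.69 ± 0.17, adjusted p = 0.00093), whose UMIs per cell were not lower: Cnn1 had 6.72 and 6.92 per cycling and 6.19 and 6.30 per non-cycling cell. The genes that did not pass were Flna, Actn1, Smtn and the oxytocin receptor gene Oxtr, which receives the signal to contract. Oxtr stood at 226 and 250 scaled CPM in non-cycling and 178 and 209 in cycling cells (-0.29 ± 0.15, adjusted p = 0.17), and changed by -0.43 (adjusted p = 0.00024) against depth-matched cells. Against that reference 22 contractile genes fell and none rose. The count of 21 became 11 without H and 11 without G, where the spread of the single library left had to be taken from the other stages, and 2 when the library was not kept as a block. Myh11 and Cnn1 were among those lost (adjusted p from 0.088 to 0.15), with log2 changes between -0.68 and -0.74.

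**Figure D2:**
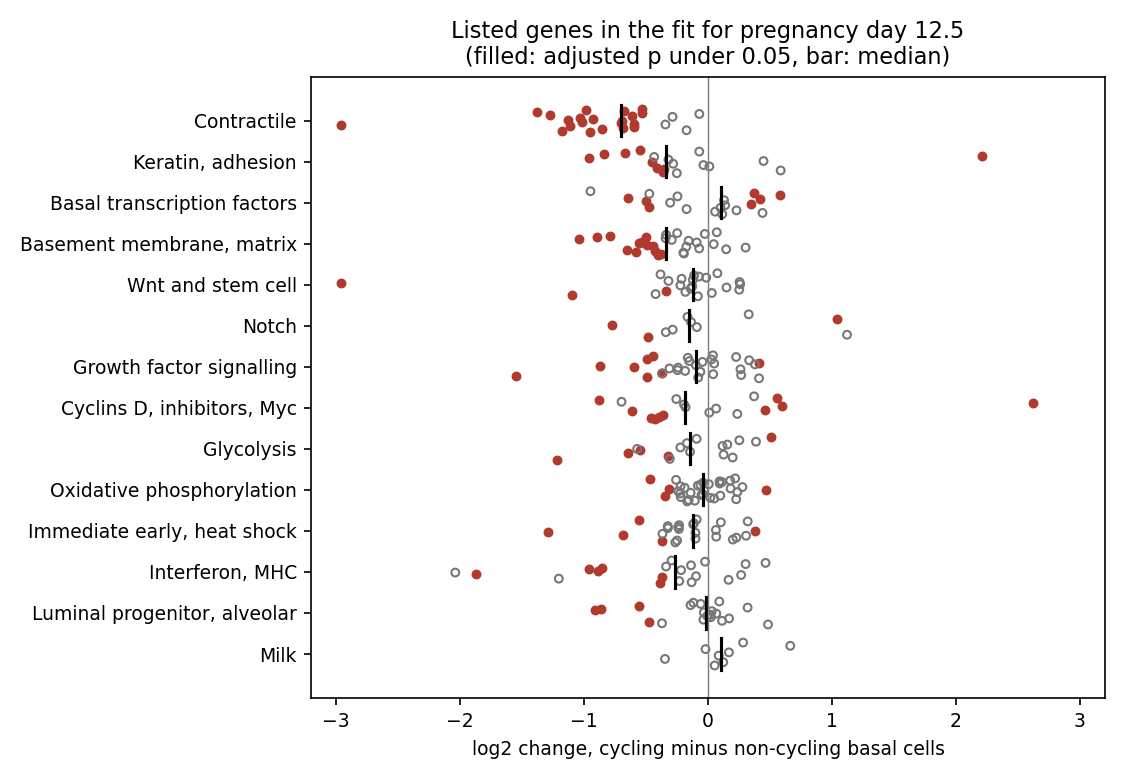
Log2 change of each tested gene, cycling minus non-cycling basal cells at pregnancy day 12.5 (horizontal axis), by gene list; each point is a gene, filled points have an adjusted p under 0.05 and the bar marks the list's median. The contractile list has 21 of 25 genes lower and the milk list 0 of 8 called.

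The contractile level is given along the counts that chose the cells only as a description, and the bins also differed in depth, with medians from 2968 (H) and 3095 (G) UMIs at a count of 0 to 5291 and 5785 at 10 or more. Contractile genes summed to 48181 CPM (H) and 46728 (G) in cells with 0 of the 4 genes' UMIs, to 42242 and 38984 with 1, to 30263 and 32791 with 2 just outside the rule, to 28794 and 28727 with 3 just inside it, and to 27464 and 27583 with 10 or more. The 98 (H) and 171 (G) members with exactly 3 UMIs had 121 and 137 contractile UMIs per cell, and the 110 and 219 members with 10 or more had 162 and 175. No test was made of these bins and nothing is drawn from their order.

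**Figure D3:**
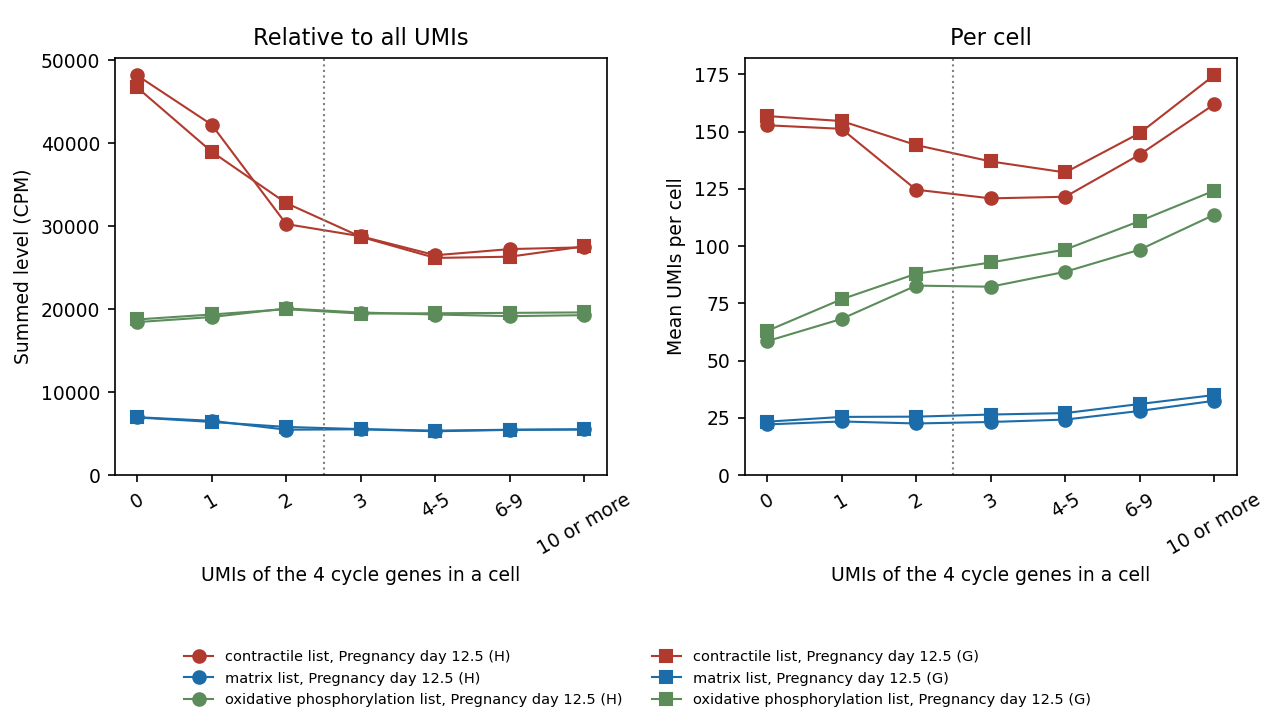
Levels of the contractile, matrix and oxidative phosphorylation lists (vertical axis, summed CPM on the left and mean UMIs per cell on the right) in basal cells binned by their UMIs of Mki67, Top2a, Cenpf and Pclaf (horizontal axis), with circles for H and squares for G; the dotted line marks the threshold of 3. The contractile level is 48181 (H) and 46728 CPM (G) at 0, 28794 and 28727 CPM at 3 and 27464 and 27583 CPM at 10 or more; the bins use the counts that chose the cells and differ in depth.

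Within the members, the contractile share was lower in cells with relatively more G2 and mitosis transcripts. Members with more S phase than G2 and mitosis UMIs had 41139 (H) and 37218 (G) contractile CPM, those with up to 4 times as many G2 and mitosis UMIs had 28638 and 27796, and those beyond 4 times had 24742 and 24859. Tagln followed the same order, at 3121 and 2849 CPM in the S phase leaning cells, 1815 and 1833 in the middle group and 1366 and 1428 in the last. In UMIs per cell the order was the same in H, with 176, 141 and 126 contractile UMIs, and in G, with 179, 148 and 142. Other measures differed along the same groups. Luminal keratins stood at 318, 404 and 530 CPM in H and 335, 356 and 452 in G. The fibroblast list stood at 335, 224 and 191 CPM in H and 343, 231 and 190 in G. Median depth was 4161, 4692 and 4975 UMIs in H and 4346, 4902 and 5391 in G. The groups come from scores of single cells, 55 and 109 cells made up the smallest, and the order of contractile levels is a description.

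A CArG box, the sequence CC followed by 6 A or T letters and GG that serum response factor recognises, was searched for in the windows of the contractile genes. Capitals mark it in 2 genes that fell, Myl9 of that list and Fbxl22, an F-box protein gene of muscle that is described below. Fbxl22 is not on the contractile list, was picked for display and is not in the list's count given below.
Myl9 (chr2:156775214-156775463, plus strand): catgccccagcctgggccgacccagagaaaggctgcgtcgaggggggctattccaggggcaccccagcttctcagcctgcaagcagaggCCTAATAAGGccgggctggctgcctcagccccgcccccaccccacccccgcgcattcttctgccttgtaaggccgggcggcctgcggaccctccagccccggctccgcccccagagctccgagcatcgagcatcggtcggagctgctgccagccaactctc
Fbxl22 (chr9:66514594-66514843, minus strand): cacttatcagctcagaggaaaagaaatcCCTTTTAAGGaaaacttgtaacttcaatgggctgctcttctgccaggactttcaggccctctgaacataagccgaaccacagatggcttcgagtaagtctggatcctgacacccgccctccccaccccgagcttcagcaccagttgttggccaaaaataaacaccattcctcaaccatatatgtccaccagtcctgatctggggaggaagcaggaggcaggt
It was found in 4 of 26 promoters (15.4%) of 22 contractile genes and in 482 of 32851 (1.47%) of all promoters of this length. Windows of 250 bases miss sites elsewhere, and whether a factor binds there was not measured.

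Of 18 tested keratin, desmosome and integrin genes, 8 fell and 1 rose (median -0.34), and of 28 tested basement membrane and matrix genes 13 fell and none rose (median -0.34), beside 12% lower and 13.1% higher of all genes. Without H or without G, 1 of the first list and 3 of the second were lower and none was higher. Without adult replicate 1 or 3, 20 and 19 of the second were lower. The gene that rose was Krt6a, at low levels of 0.12 (H) and 0.399 (G) scaled CPM in non-cycling and 2.10 and 1.10 in cycling cells (2.21 ± 0.71, adjusted p = 0.016). Its call was lost without H (1.41, adjusted p = 0.68) and without G (3.90, adjusted p = 0.085). Sparc, a collagen-binding matrix protein, went from 2597 (H) and 2393 (G) scaled CPM in non-cycling to 1449 and 1412 in cycling cells (-0.79 ± 0.14, adjusted p = 9e-06). Mmp2, a gelatinase, went from 54.1 and 53.7 to 26.1 and 25.7 (-1.04 ± 0.13, adjusted p = 1.5e-09), and periostin, Postn, changed by -0.89 ± 0.16 (adjusted p = 1.7e-05). Laminin genes Lama1, Lama3, Lamb1 and Lamb3 also fell, whereas Lama5, Lamb2, Lamc1 and the collagen IV genes Col4a1 and Col4a2 passed no test. In UMIs per cell the matrix list was higher in cycling cells, at 27.0 against 22.2 in H and 30 against 23.4 in G, and lower than in the depth-matched non-cycling cells, which had 31.3 and 34.6 at a slightly lower UMI total. Against that reference 19 of 27 tested matrix genes fell, where 2974 of all 9866 genes were called in either direction. Among adhesion genes Lgals7, an epidermal galectin, changed by -0.84 ± 0.16 (adjusted p = 2.3e-05) and Perp, a desmosomal protein, by -0.67 ± 0.13 (adjusted p = 5.5e-05), while Krt17 gave -0.43 ± 0.19 (adjusted p = 0.082). Without H, Sparc no longer passed (-0.77, adjusted p = 0.077), and neither Perp nor the 4 laminin genes passed without H or without G (adjusted p from 0.075 to 0.56).

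Transcription factors of the basal lineage did not move as a group. Of 19 tested, 3 fell and 4 rose, beside 12% and 13.1% of all genes, with a median of 0.10. The counts were 6 and 6 without adult replicate 1, 5 and 6 without adult replicate 3, and 3 and 2 without either day 18.5 library. Sox4 went from 253 (H) and 261 (G) scaled CPM to 153 and 173 (-0.64 ± 0.13, adjusted p = 6.1e-05), and Snai2, the zinc finger factor Slug, from 102 and 108 to 62.2 and 84.1 (-0.50 ± 0.12, adjusted p = 0.00065). Mef2c, a factor of muscle genes, changed by -0.48 ± 0.11 (adjusted p = 0.00078). The rises of Tcf7l1, Sox11, Nfib and Tbx2 did not pass against depth-matched cells, where 6 of the 19 fell and none rose, nor without H (adjusted p from 0.63 to 0.76) or without G (0.58 to 0.79). Without H or without G, Sox4, Snai2 and Mef2c did not pass either (log2 changes between -0.36 and -0.72, adjusted p from 0.076 to 0.63). Sox10 differed by less than its error (0.13 ± 0.13, adjusted p = 0.53). Among the rule's own genes, for which no test applies, Krt14 differed by -0.78, Il17b by -0.97, Trp63 by -0.40 and Krt5 by -0.25 on the log2 scale. The rule's 4 basal genes, which include Cxcl14 and Jag2, ranged from -0.97 to 0.21, so not all of them were lower.

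Ligands and receptors changed gene by gene. Of 10 tested Notch pathway genes 2 fell and 1 rose, beside 12% and 13.1% of all genes. Those that fell were ligands, Jag1 from 41.2 (H) and 48.1 (G) to 24.3 and 27.5 scaled CPM (-0.78 ± 0.13, adjusted p = 3e-06) and Dll1 by -0.48 on the log2 scale (SE 0.13, adjusted p = 0.0024). The receptor gene Notch1 rose from 10.4 and 8.32 to 21.3 and 17.0 scaled CPM (1.04 ± 0.18, adjusted p = 6.2e-06), a low level in both states. Of 22 Wnt pathway and stem cell genes tested 3 fell, a share near the 12% of all genes. They were Dkk3 (-1.10 ± 0.19, adjusted p = 4.8e-06), Lgr4 (-0.34 ± 0.12, adjusted p = 0.030) and Procr, which was under 2 scaled CPM in every sum. The count was 8 without adult replicate 1 and 8 without adult replicate 3. Axin2, a feedback target of Wnt signalling, was at 3.36 and 3.59 scaled CPM in non-cycling and 3.00 and 3.45 in cycling cells (-0.08 ± 0.34, adjusted p = 0.90). Of these calls, those of Notch1 (1.02 without H and 1.04 without G, adjusted p = 0.064 and 0.097), Dll1, Lgr4 and Procr were lost when either day 12.5 library was left out, and those of Jag1 (-0.76, adjusted p = 0.15) and Dkk3 (-1.15, adjusted p = 0.061) without G.

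Among 29 tested growth factor genes, 7 fell and 1 rose, beside 12% and 13.1% of all genes. Without H or without G, 1 fell and none rose. Igfbp5, a binding protein that holds insulin-like growth factors, went from 1770 (H) and 1792 (G) scaled CPM to 927 and 1004 (-0.87 ± 0.15, adjusted p = 4.5e-06), and Igfbp4 changed by -0.60 ± 0.12 (adjusted p = 0.00013). Egfr, the epidermal growth factor receptor gene, went from 36.6 and 35.5 to 21.9 and 27.6 (-0.50 ± 0.14, adjusted p = 0.0042). Neuregulin 1, Nrg1, a ligand of ErbB receptors, rose from 379 and 470 to 519 and 602 scaled CPM (0.41 ± 0.13, adjusted p = 0.010), and its rise against depth-matched cells was 0.36 (adjusted p = 0.0024). The calls of Igfbp4, Egfr and Nrg1 were lost without H (adjusted p from 0.067 to 0.71) and without G (0.22 to 0.44), and that of Igfbp5 was not.

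Regulators of cell cycle entry, kept apart from the cell cycle lists, moved in both directions, where 12% of all genes were lower and 13.1% higher. Of 18 tested, 6 fell and 4 rose, whereas 1 fell and none rose without H, and 1 fell and 1 rose without G. Myc, a growth-promoting transcription factor, went from 160 (H) and 164 (G) scaled CPM in non-cycling to 84.1 and 90.7 in cycling cells (-0.88 ± 0.13, adjusted p = 7.4e-08), at nearly equal UMIs per cell (0.455 and 0.490 against 0.420 and 0.486). The D cyclin genes Ccnd1 and Ccnd2, which drive entry into S phase, changed by -0.40 ± 0.12 (adjusted p = 0.011) and -0.36 ± 0.13 (adjusted p = 0.029), and Ccnd3 did not pass. These are changes of the share of transcripts. In UMIs per cell Ccnd1 was higher in cycling cells, at 0.994 and 1.37 against 0.809 and 0.951. The gene of the D cyclins' partner kinase, Cdk4, rose from 285 and 275 to 387 and 379 scaled CPM (0.46 ± 0.13, adjusted p = 0.0047). Of the kinase inhibitor genes, Cdkn1b (p27) rose by 0.60 ± 0.18 (adjusted p = 0.011), from 9.35 and 10.1 to 15 and 14.6 scaled CPM, and Cdkn2a rose from 0.479 and 1.06 to 6.91 and 4.40 (2.62 ± 0.47, adjusted p = 1.1e-05). Cdkn1a (p21) was at 221 and 203 against 203 and 170 scaled CPM and did not pass (-0.18 ± 0.14, adjusted p = 0.38). The antiproliferative genes Btg1 and Btg2 fell, Btg2 by 0.46 on the log2 scale. Myc passed without H and without G, Cdkn2a did not pass without H (2.02, adjusted p = 0.10), and the other 6 called genes of this paragraph did not pass when either was left out (adjusted p from 0.28 to 0.70).

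Of 33 tested genes of oxidative phosphorylation 3 fell and 1 rose, fewer than the 12% and 13.1% of all genes. In the edgeR fit these counts were 0 and 0 without H or without G, with 0 at an unadjusted p under 0.05, and 11 and 7 without adult replicate 1 or 3. Cytochrome c, Cycs, rose from 280 (H) and 254 (G) to 380 and 351 scaled CPM (0.46 ± 0.13, adjusted p = 0.0042). Of 17 glycolysis genes 4 fell and 1 rose. Instead, 1 fell and none rose without H or without G, 8 fell and 4 rose without adult replicate 1 or 3, and 8 of 16 fell and 1 rose against depth-matched cells. Aldolase A, Aldoa, went from 302 and 275 to 127 and 119 scaled CPM (-1.22 ± 0.13, adjusted p = 3e-11), while Tpi1, the next enzyme of the pathway, went from 103 and 94.8 to 147 and 132 (0.51 ± 0.12, adjusted p = 0.00059). Of 25 immediate early and heat shock genes, 4 fell, near the 12% of all genes, and 1 rose, below the 13.1%. Here 1 fell and none rose without H or without G, 11 fell and 5 rose without adult replicate 1 or 3, and 4 fell and 4 rose against depth-matched cells. The small heat shock protein gene Hspb1 went from 758 and 775 to 312 and 311 scaled CPM (-1.29 ± 0.16, adjusted p = 1.7e-09), and Fos, which is induced when tissue is dissociated, differed by less than its error (-0.10 ± 0.15, adjusted p = 0.69). Of 20 interferon and antigen presentation genes 6 fell and none rose, among them Ifitm3 (-0.89 ± 0.15, adjusted p = 1.7e-06) and B2m (-0.38 ± 0.13, adjusted p = 0.027), and the count was 1 without H and 1 without G. The calls of Cycs, Tpi1 and B2m were lost without H and without G (adjusted p from 0.34 to 0.63), and those of Aldoa, Hspb1 and Ifitm3 were not. Of 78 ribosomal protein genes, 11 fell and none rose, a share of called falls near the 12% of all genes, with a median of -0.26. In the edgeR fit none passed without H or without G, also at an unadjusted p under 0.05 (0 genes). In contrast, 60 fell without adult replicate 1 and 64 without adult replicate 3.

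Beyond the fixed lists, genes were named by a rule: the 12 largest rises and 12 largest falls among called genes with a mean of at least 20 CPM in either state and the same direction in H and G, a condition that 734 higher and 1004 lower genes met. Genes of the 3 cell cycle lists were left out, so the 12 that rose stood on none of them. Some, such as Knstrn and Tedc1, still encode spindle or centriole proteins. Cells were chosen by cell cycle UMIs, and genes that vary with those are selected with them. These rises and their p-values therefore describe the cells and are no evidence beyond that choice. Knstrn, a spindle and kinetochore protein, rose from 18.6 (H) and 16.3 (G) to 172 and 158 scaled CPM (3.26 ± 0.12, adjusted p = 3.4e-33), and Tedc1, of a centriole tubulin complex, from 2.76 and 1.53 to 20.7 and 19.8 (3.34 ± 0.25, adjusted p = 6.1e-18). The linker histone gene H1fx rose by 2.45 ± 0.20, Hirip3, a partner of the histone chaperone HIRA, by 2.17 ± 0.14, and Ndc1, a nuclear pore anchor, by 2.19 ± 0.16. The largest of these 12 rises was that of Cnih2, a cornichon protein known as a subunit of neuronal glutamate receptors, from 3.72 and 5.39 to 62.8 and 55.9 scaled CPM (3.63 ± 0.16, adjusted p = 6.3e-28). Mlf1, Cmc2, Nt5dc2, Zfp367 and Gltp, a glycolipid transfer protein, rose by between 2.06 and 2.52. Dynlt1a, a dynein light chain gene, gave 2.81 ± 0.21, but near-identical copies of it lie in the genome and the assignment of reads among them is uncertain.

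Among the 12 genes that fell were the chemokine genes Ccl2 and Ccl7. Ccl2 went from 201 (H) and 182 (G) to 58.6 and 62.0 scaled CPM (-1.64 ± 0.12, adjusted p = 1.5e-17), and Ccl7, its neighbour in function as an attractant of monocytes, from 126 and 113 to 37 and 38 (-1.65 ± 0.14, adjusted p = 5.9e-16). Fbxl22, the muscle F-box gene whose promoter is shown above, went from 386 and 374 to 124 and 116 (-1.65 ± 0.14, adjusted p = 3.7e-15). Angptl4, a secreted inhibitor of lipoprotein lipase, went from 255 and 223 to 68.5 and 68.9 (-1.78 ± 0.16, adjusted p = 1.8e-14). Hmox1, the heme-degrading enzyme, went from 73.9 and 70.0 to 24.3 and 24.6 (-1.53 ± 0.14, adjusted p = 2.1e-14). Sh3bgr, Tcp11l2, Kdm7a, a histone demethylase, Vmac, Pbxip1 and Csdc2 fell by between 1.5 and 2.29 on the log2 scale. In UMIs per cell, Ccl2 was 0.574 and 0.543 in non-cycling and 0.292 and 0.332 in cycling cells, and Fbxl22 was 1.10 and 1.12 against 0.621 and 0.624, so these genes were lower per cell as well as in scaled CPM. Fabp4, a fatty acid binding protein of adipocytes and endothelium, rested on H, where it went from 51.4 to 3.61 scaled CPM, against 9.65 to 5.65 in G, and without H its change was -0.78 (adjusted p = 0.25).

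**Figure D4:**
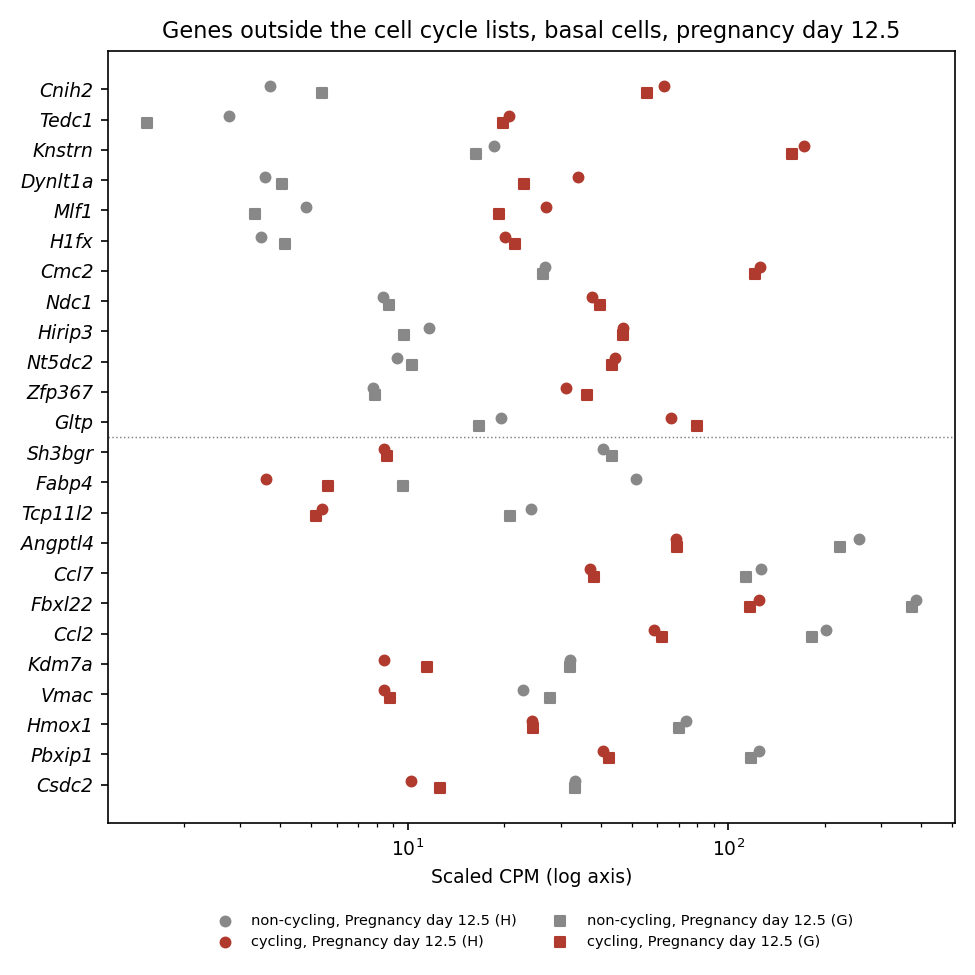
Scaled CPM (horizontal axis, log scale) of the 12 genes with the largest rise and the 12 with the largest fall, in non-cycling and cycling basal cells of H and G, 1 point per library and state (circles H, squares G, grey non-cycling, red cycling). Apart from Fabp4, whose H and G levels differ in non-cycling cells (51.4 and 9.65), the libraries lie close together within a state.

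Luminal transcripts were checked because a basal and a luminal cell caught in 1 droplet could meet the rule. Each cell was thinned to 3000 UMIs, which kept 625 of 667 and 1129 of 1189 cycling cells, and 1428 of 2927 and 2721 of 5037 non-cycling ones. A UMI of Elf5, Kit or Aldh1a3, markers of luminal progenitors, was then seen in 5.60% (H) and 5.23% (G) of cycling and 6.23% and 4.78% of non-cycling basal cells, against 50.7% and 48.2% of cycling luminal cells. Without thinning, and so at unequal depth, the share was higher in cycling basal cells, 9.15% and 9.67% against 6.32% and 5.42% in non-cycling ones, and the intervals did not overlap in G. A UMI of Krt8 or Krt18 was seen in 71.2% and 64.9% of cycling and 73.9% and 67.3% of non-cycling basal cells (83.2% and 80.6% against 71.8% and 68.1% without thinning). One of the hormone receptor genes Esr1, Pgr or Prlr was seen in 4.64% and 3.45% against 4.20% and 3.71%. Without thinning it was seen in 6.45% and 7.15% against 4.17% and 4.15%, and these intervals did not overlap in G. None of the 3 marker sets was more frequent in cycling than in non-cycling basal cells beyond the intervals after thinning. The rule limits Krt8 and Krt18 in both groups, so that set does not check for doublets. The intervals cover counting error only, and the non-cycling cells kept were the deeper ones. The share of doublets was not measured by these sets. Csn2, the beta-casein gene, had a UMI in 625 of 625 and 1128 of 1129 thinned cycling basal cells and in 1428 of 1428 and 2718 of 2721 non-cycling ones. Milk transcripts were as widespread in the 17 (H) and 15 (G) non-epithelial cells, all of which had a UMI of the milk list before thinning, at 9338 and 6988 CPM and a median of 2628 and 2413 UMIs. The milk UMIs of basal cells, at 10337 and 8869 CPM in the non-cycling ones, are therefore not read as expression.

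Some measures did differ. Luminal keratins gave 23.2% (H) and 22.4% (G) of all UMIs of the 4 keratins in cycling and 17.2% and 16.6% in non-cycling basal cells. The rule used these keratins, so this is a description: the luminal keratins stood at 471 (H) and 410 (G) CPM in cycling and 476 and 404 CPM in non-cycling cells, while the basal keratins stood at 1562 and 1421 against 2290 and 2029 CPM. Cells within the top 5% of doublet scores by Scrublet made up 6.15% and 6.31% of cycling and 1.02% and 1.65% of non-cycling basal cells, and the score was not used to remove cells in the values above. Without them, 15.7% (H) and 16.1% (G) of basal cells were cycling, the milk list was at 9452 and 8240 CPM in cycling against 9801 and 7974 in non-cycling cells (11903 and 10641 against 10337 and 8869 with them), and 21 of 25 contractile genes were again called lower. For the counts that follow, the fit with all cells called 12% of all genes lower and 13.1% higher. Of 20 luminal progenitor and alveolar genes tested 4 fell and none rose, the neutrophil lipocalin Lcn2 by 0.87 and the milk fat globule gene Mfge8 by 0.56 on the log2 scale (the latter lost without H or without G, adjusted p = 0.27 and 0.23). That count was 1 without H, 1 without G and 8 of 19 against depth-matched cells, and 0 of 8 milk and 0 of 12 mature luminal genes passed. Of 7 fibroblast genes 3 fell (2 without H, 1 without G), of which Dcn went from 348 and 366 to 195 and 202 scaled CPM. After thinning to 3000 UMIs, a UMI of the fibroblast list was seen in 42.2% and 43.0% of cycling and 53.4% and 54.6% of non-cycling basal cells, and one of the immune list in 0.32% and 0.62% against 0.28% and 0.44%. Of 7 endothelial and mural genes, 2 fell (1 without H, 0 without G, where 1 had an unadjusted p under 0.05): Rgs5, a marker of pericytes, from 8.51 and 4.79 to 3.00 and 1.57 scaled CPM, and Des, which was under 1 scaled CPM in every sum of H and G. That list summed to 7.56 (H) and 4.60 (G) CPM in cycling and 13.8 and 8.11 CPM in non-cycling basal cells, ratios of 0.548 and 0.567. It summed to 25.1 and 11.9 CPM in the depth-matched cells, ratios of 0.301 and 0.387. Mural cells express Acta2, Tagln and Myh11 too, and their list was lower in cycling cells along with the contractile list. The part of fibroblast transcripts in the matrix result and of mural transcripts in the contractile result was not tested.

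**Figure D5:**
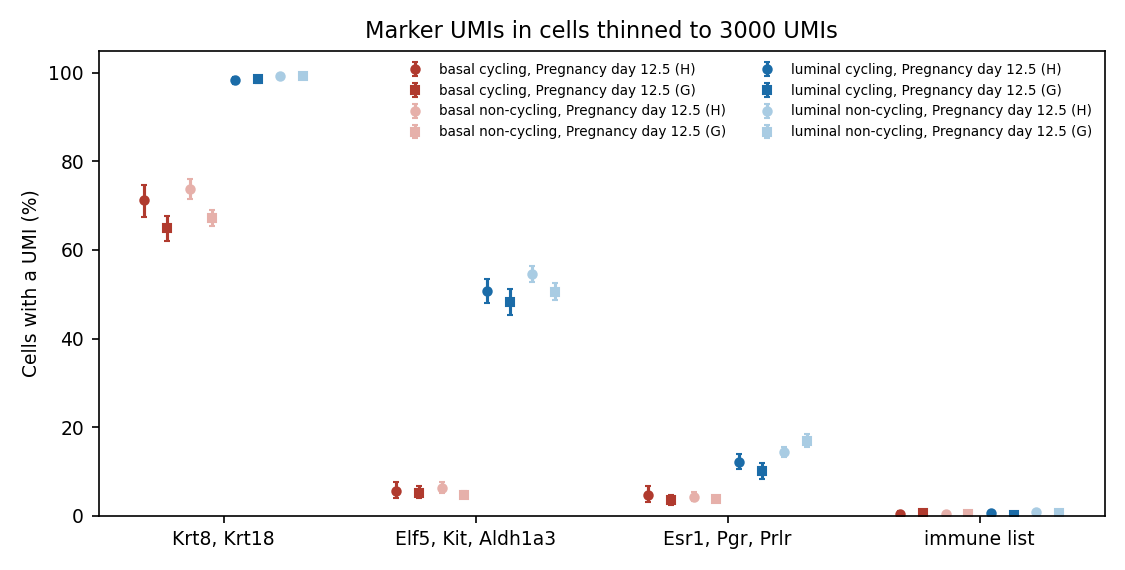
Share of cells (vertical axis, percent) with a UMI of each marker set after thinning to 3000 UMIs, in cycling and non-cycling basal and luminal cells of H and G; bars give exact binomial 95% intervals. Elf5, Kit or Aldh1a3 was seen in 5.60% and 5.23% of cycling basal and 50.7% and 48.2% of cycling luminal cells.

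Whether these differences belong to cycling cells of either layer was asked by comparing the change with that in luminal cells of the same libraries, 1444 and 1156 cycling against 3543 and 3061 non-cycling. The difference of the 2 changes was called for 593 of 15211 genes (3.9%), of which 1.63% of genes were higher and 2.27% lower in the basal change. Of 25 contractile genes 13 had the more negative change in basal cells and none the less negative one (median -0.59). That count depended on the libraries and on the block. It was 20 without adult replicate 1 and 3 without the post-involution library. In the edgeR fit it was 0 without H, 0 without G and 0 without the library as a block, and with DESeq2 it was 0. In these 4 runs 12, 14, 0 and 8 genes had the more negative change at an unadjusted p under 0.05. Tagln changed from 3942 (H) and 4006 (G) to 1370 and 1455 scaled CPM in basal cells and from 211 and 375 to 144 and 227 in luminal cells, a difference of -0.84 ± 0.14 (adjusted p = 1.4e-06), which was -0.73 without H (adjusted p = 0.83) and -0.96 without G (adjusted p = 0.15). The levels in luminal cells were low, and the contractile list summed to 3119 and 4551 CPM in their cycling cells. The luminal sets were not split by subtype. The mature luminal list stood at 206 (H) and 260 (G) CPM in non-cycling and 114 and 117 in cycling luminal cells. The luminal progenitor and alveolar list stood at 39651 and 39685 against 31509 and 31193. Of 12 mature luminal genes, 6 had the higher change in basal cells and none the lower (median 1.16). The part of the subtype mix in these and other differences from luminal cells was not tested.

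Other genes differed in either direction. Emp1, an epithelial membrane protein, went from 20.7 (H) and 19.0 (G) to 53.0 and 48.8 scaled CPM in basal cells, against 44.2 and 34.4 to 38 and 32.9 in luminal cells (difference 1.52 ± 0.18, adjusted p = 4.4e-14). Defb1, a beta-defensin, went from 35.7 and 45.8 to 18.8 and 24.5 in basal cells and from 44.0 and 67.7 to 7.10 and 12.9 in luminal cells (1.60 ± 0.17, adjusted p = 6.9e-18). Its scaled CPM was thus lower in cycling cells of both layers and more so in luminal ones. In UMIs per cell it was 0.114 and 0.149 in non-cycling and 0.112 and 0.156 in cycling basal cells, against 0.233 and 0.356 and 0.0651 and 0.121 in the luminal ones. Slpi, a protease inhibitor, showed the same order of scaled CPM with a difference of 1.26 ± 0.16, while its UMIs per basal cell went from 0.571 and 0.437 to 0.499 and 0.535. Cnih2, Knstrn and Dynlt1a had larger rises in basal cells. The more negative changes were those of Fabp4, Sh3bgr, Ccl7, Chil1, Ccl2 and Angptl4, for Ccl2 with a difference of -1.30 ± 0.15 (adjusted p = 6e-15). Ccl2 stood at 16.0 and 18.8 scaled CPM in non-cycling and 11.1 and 14.7 in cycling luminal cells, against 179 and 167 and 49.0 and 52.4 in the basal ones. The calls of Cnih2, Sh3bgr, Ccl2 (-1.31 and -1.32, adjusted p = 0.066 and 0.056) and Chil1 were lost without H or without G, that of Dynlt1a without H (1.28, adjusted p = 0.61) and that of Slpi without G (0.84, adjusted p = 0.50). The count of 593 was 25 without H, 36 without G, 1335 without adult replicate 1 and 1252 without adult replicate 3.

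Cycling basal cells of the adult gland were few. The adult libraries held 260, and replicates 1 and 3, with 216 and 41 cells, entered the comparison, while replicate 2 with 3 cells did not. Depth differed more between states there, with a median of 10852 against 3682 UMIs in replicate 1 and 10166 against 4391 in replicate 3. The change from non-cycling to cycling cells differed between day 12.5 and the adult for 648 of 12988 genes (4.99%), of which 2.6% of genes were higher and 2.39% lower at day 12.5. Of 25 contractile genes 3 had the higher and 2 the lower change at day 12.5, with a median of 0.06. These counts were 0 and 4 without adult replicate 1, 15 and 1 without adult replicate 3, 1 and 0 without H, and 2 and 0 without G.

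In scaled CPM, Ccnd1 moved in opposite directions. It went from 284 (H) and 319 (G) to 199 and 256 at day 12.5 and from 113 and 49.7 to 292 and 174 in adult replicates 1 and 3 (difference -1.96 ± 0.19, adjusted p = 9.2e-11). In UMIs per cell it was higher in cycling cells at both stages. It went from 0.809 and 0.951 to 0.994 and 1.37 at day 12.5 and from 0.434 and 0.229 to 3.09 and 1.98 in the adult. Its scaled CPM in cycling cells was of the same order at either stage, while that in non-cycling cells was higher at day 12.5. Slpi likewise had similar levels in cycling cells, between 95.6 and 118 in the 4 libraries, against 200.3 and 146 (day 12.5) and 2124 and 1313 (adult) in non-cycling cells (difference 3.32 ± 0.23, adjusted p = 1.3e-16). Lbhd2 gave -2.17 ± 0.22 and Tppp3, a tubulin-binding protein, 2.15 ± 0.28, with adult replicates far apart for Tppp3 (10.5 and 202 scaled CPM in cycling cells). The calls of Sdk1, Scn7a, Mmp2, Chil1, Krt23, Serpinf1, Igfbp4 and Hibch were lost without adult replicate 1, those of Chil1 (1.30, adjusted p = 0.29) and Hibch (-0.94, adjusted p = 0.58) also without G, and the count of 648 was 179 without it, 2181 without adult replicate 3, 71 without H, 49 without G and 425 without pregnancy day 18.5 replicate 2. Of 25 immediate early and heat shock genes, 7 had the higher change at day 12.5 and none the lower. These were 20 and 2 without adult replicate 3, 1 and 2 without adult replicate 1, 3 and 0 without day 18.5 replicate 2, and in the edgeR fit 0 and 0 without H or without G, where 9 and 8 had the higher change at an unadjusted p under 0.05.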

How the data were processed

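The deposited files held raw counts of UMIs per gene and barcode. The authors captured cells with 10x Chromium chemistry and made the counts with Cell Ranger (3.0.2 per the file headers, 3.1.0 and mm10 per the labels' processing notes). Cells were selected as described, and UMIs were summed per library, lineage and state where at least 20 cells were present. The quasi-likelihood test of edgeR 4.0.16 (R 4.3.3) was run on the sums after filterByExpr and TMM scaling, with the library as a block, since both states of a library came from the same cell suspension, and a change per stage. All stages shared 1 estimate of the spread. Deviations of H from G in the 2 states correlated with r = 0.469 over 5095 genes. A call meant a p-value under 0.05 after Benjamini-Hochberg adjustment. The basal minus luminal and day 12.5 minus adult differences were interaction terms. Scaled CPM are CPM after TMM scaling. The members and gene lists were chosen with earlier results of these data known. Lists could be named freely, and other genes by the rule given, with the 6 largest in each direction for each difference. Doublet scores came from Scrublet (scanpy 1.11.5). Exact binomial intervals cover counting error only. Alternatives were DESeq2 1.42.0, other scaling, filters and thresholds, no block, and each library left out. Other reference cells were used only for cycling against non-cycling basal cells. The fit of cycling against non-cycling basal cells was tested on simulated data, and the fits of the 2 differences were not. Promoters and motifs were read from RefSeq. Lactation and post-involution libraries entered the shares of cycling cells and, where they held enough cells, the basal minus luminal fit.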

Additional observations from a re-analysis of the deposited data

Results flagged for a closer look

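Genes were called for the difference of the cycling change between basal and luminal cells (593) and between day 12.5 and the adult gland (648), by interaction terms of the edgeR quasi-likelihood fit. Without the library as a block, 0 genes were called for either difference. Several genes below lost their call without H or without G or, between the stages, without adult replicate 1, as given above. Between the layers, the positive differences on the log2 scale were those of Defb1 (1.60), Dynlt1a (1.52), Emp1 (1.52), Cnih2 (1.42), Knstrn (1.38) and Slpi (1.26). The negative ones were those of Fabp4 (-2.89), Sh3bgr (-1.76), Ccl7 (-1.45), Chil1 (-1.41), Ccl2 (-1.30) and Angptl4 (-1.27). Between the stages, differences were positive for Slpi (3.32), Sdk1 (2.50), Tppp3 (2.15), Scn7a (2.07), Mmp2 (1.99) and Chil1 (1.78). They were negative for Lbhd2 (-2.17), Ccnd1 (-1.96), Krt23 (-1.76), Serpinf1 (-1.52), Igfbp4 (-1.51) and Hibch (-1.42).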

How the results depend on the processing

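None of the 103 called list genes and 24 genes named for the largest changes between cycling and non-cycling basal cells changed sign under the alternatives run. Values that were not called did: the ratio of the milk list, cycling to non-cycling, was 1.15 (H) and 1.20 (G), but 0.964 in H without likely doublets and 0.961 in G against depth-matched cells, the median of the basal transcription factors was 0.10 but -0.10 against depth-matched cells, and the median of all genes was -0.02 but 0.12 without TMM scaling. The counts of called genes moved with the replicate block and with the day 12.5 and adult libraries left out. Without the library as a block, 446 genes were called between cycling and non-cycling basal cells, 0 for the basal minus luminal difference (297 at an unadjusted p under 0.05) and 0 for the difference from the adult (481), and 4 genes of the lists against 103 with it. DESeq2 called 1204, 76, 71 and 49, and with only the 2 day 12.5 libraries edgeR called 5105 and 192 of the list genes. Leaving out 1 library gave between 632 and 4643 genes for the first comparison, 25 and 1335 for the second, 49 and 2181 for the third and 23 and 172 for the lists. Of the 127 called list and named genes together, 21 passed under every alternative, and 18 of these were among the 24 genes named for the largest changes. Few called list genes therefore passed throughout. A threshold of 5 cell cycle UMIs gave cycling shares of 11.4% (H) and 11.9% (G), thinning to 2000 UMIs gave 8.76% and 8.13%, and without thinning Elf5, Kit or Aldh1a3 was seen in 9.15% and 9.67% of members. With 2 libraries at day 12.5, small changes cannot be told from the spread between libraries. Genes under a few CPM rest on few UMIs.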

Other observations

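The genes named for the largest changes at day 12.5 outside the cell cycle lists were looked up in cycling basal cells of pregnancy day 18.5 (85 and 61 cells in replicates 1 and 2) and of adult replicates 1 and 3 (216 and 41), whose own changes were not ranked to choose them. All 12 genes that rose at day 12.5 were higher in cycling than in non-cycling cells of both day 18.5 libraries and of both adult libraries. Knstrn, the spindle protein, stood at 5.59 and 2.57 scaled CPM in non-cycling and 158 and 99.6 in cycling cells at day 18.5, and at 4.23 and 1.70 against 69.3 and 21.5 in the adult. Of the 12 genes that fell, 11 were lower in both day 18.5 libraries and 10 in both adult ones. The muscle F-box gene Fbxl22 was at 564 and 488 against 142 and 161 at day 18.5, and Angptl4 at 454 and 500 against 137 and 150. The exception at day 18.5 was Fabp4, at 49.5 and 105.2 in non-cycling and 80.0 and 484 in cycling cells, and in the adult the exceptions were Fabp4 and Ccl2, the latter at 58.4 and 19.0 against 35.5 and 30. These are values of few cells, which were chosen by the same 4 cell cycle genes, and no test was made of them. The share of all genes that kept their direction at these stages is not given, so the counts have no baseline. The day 18.5 and adult libraries entered the estimate of the spread with which the day 12.5 genes were called.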
